A study of Homo sapiens with 3 samples.

Results

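The 10 genes described here encode enzymes that oxidise methylated cytosine or cut the oxidised or deaminated base out of DNA, and they were picked by symbol from the 31113 gene symbols of 3 single-cell count matrices. They are TET1, TET2 and TET3, the DNA glycosylases TDG, SMUG1, NEIL1, NEIL2, NEIL3 and MBD4, and the endonuclease APEX1. The choice followed gene names and not measured values, although earlier results of these data were known when it was made. All 10 symbols were present in the matrices.

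The matrices come from H9, an established human embryonic stem cell line, profiled with inDrop and its TruDrop protocol, a droplet method that tags RNA by cell with barcodes and by molecule with unique molecular identifiers (UMIs). The labels give the library of day 0 as embryonic stem cells and those of day 2 and day 6 as differentiated cells or neural progenitors. All 3 carry the same entries for medium and treatment, the stem cell medium mTeSR and the STEMdiff SMADi Neural Induction Kit, so which medium each library had when it was collected is not given. The sample titles also carry a letter, A for day 0 and day 6 and B for day 2, which the labels do not explain, so it cannot be told apart from the label day 2. There is 1 library per day, hence no replicate and no test between days, and every range in parentheses after a value is a 95% interval for counting error only.

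Cells with fewer than 1000 UMIs, fewer than 500 genes or over 25% mitochondrial UMIs were set aside. This left 2290, 2419 and 4180 cells in the 3 libraries (labels day 0, day 2 and day 6), with 28341741, 20626135 and 41268018 UMIs and a median of 8770, 3814 and 4429 UMIs per cell. The cell content went against the day labels. POU5F1, the pluripotency factor OCT4, was seen in 0.175%, 73.4% and 25.7% of cells at 1000 UMIs per cell, and PAX6, a neural progenitor factor, in 17.9%, 0.827% and 2.39%. The 5 pluripotency markers summed to 88.5, 2505 and 598 counts per 1000000 UMIs (CPM), with 1 of the 5 at 0 in the library labelled day 0, and the 5 neural progenitor markers summed to 374, 22.4 and 79.8 CPM. The 3 neuron markers summed to 14.3, 19.3 and 107 CPM and the 3 mesenchyme markers to 57.6, 25.4 and 35.2 CPM, while those of mesoderm (2 of 3 found) and of endoderm stood under 1 CPM in each library. Of 3 neural crest markers 2 were found, TFAP2A and FOXD3, which summed to 0.706, 27.6 and 0.460 CPM. The libraries are therefore named by their labels, and no difference between them is given as a change over time. Cells below 5% mitochondrial UMIs made up 20.2%, 49.0% and 39.4%. Between the libraries, 38 kept barcodes were shared by labelled day 0 and day 2, 82 by day 0 and day 6, and 72 by day 2 and day 6.

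Active demethylation starts with the TET dioxygenases, which use oxygen, iron and 2-oxoglutarate to turn 5-methylcytosine into 5-hydroxymethylcytosine and then into formylated and carboxylated cytosine. TDG removes the formylated and carboxylated forms, APEX1 cuts the DNA at the site without a base, and base excision repair fills the gap with unmodified cytosine. In mouse embryonic stem cells TET1 and TET2 are known as the main members of the family, while TET3 is best known from the egg and from neural tissue.

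The starts of the TET genes are shown because the results turn on how the 3 TET transcripts differ between libraries. TET1 lies on chromosome 10 at 68560656 to 68694482, TET2 on chromosome 4 at 105145875 to 105279816 and TET3 on chromosome 2 at 73986404 to 74108176, all on the plus strand of GRCh38 and all annotated by GENCODE as protein-coding. The 250 bases before RefSeq transcript starts (GRCh38.p14, plus strand, 5′ to 3′) are given with CG dinucleotides, the substrate of the pathway, in capitals.
TET1, start 1, chr10:68560087-68560336: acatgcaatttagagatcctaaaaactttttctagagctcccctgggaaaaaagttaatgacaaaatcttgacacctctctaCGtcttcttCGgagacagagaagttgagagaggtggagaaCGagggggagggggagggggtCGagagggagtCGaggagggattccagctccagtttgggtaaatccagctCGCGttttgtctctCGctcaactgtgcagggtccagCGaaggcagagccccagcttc
TET1, start 2, chr10:68600018-68600267: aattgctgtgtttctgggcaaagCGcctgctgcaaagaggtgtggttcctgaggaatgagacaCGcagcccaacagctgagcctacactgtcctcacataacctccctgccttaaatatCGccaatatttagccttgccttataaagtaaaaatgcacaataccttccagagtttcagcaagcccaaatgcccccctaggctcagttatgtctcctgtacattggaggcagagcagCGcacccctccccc
TET2, start 1, chr4:105145625-105145874: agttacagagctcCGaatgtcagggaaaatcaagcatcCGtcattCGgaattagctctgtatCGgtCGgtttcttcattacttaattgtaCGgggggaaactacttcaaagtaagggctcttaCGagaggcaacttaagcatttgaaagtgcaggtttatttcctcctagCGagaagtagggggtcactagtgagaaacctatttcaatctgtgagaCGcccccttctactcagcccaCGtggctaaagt
TET3, start 1, chr2:73984660-73984909: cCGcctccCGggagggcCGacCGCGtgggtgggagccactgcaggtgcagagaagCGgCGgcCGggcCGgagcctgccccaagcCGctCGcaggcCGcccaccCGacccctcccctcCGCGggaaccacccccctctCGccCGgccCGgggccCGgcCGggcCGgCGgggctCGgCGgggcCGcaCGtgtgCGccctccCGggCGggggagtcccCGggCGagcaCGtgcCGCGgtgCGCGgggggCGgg

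The window before the first TET3 start held 37 CG, against a median of 11 over 34943 promoter windows of this length. At the first starts of TET1 and TET2 the windows held 9 and 10 CG, and at the second TET1 start 4. Motifs were searched on both strands, with overlaps between motifs left in. They were the GC box GGGCGG, held by 42.5% of all windows, the CCAAT box, held by 32.0%, the TATAAA box, held by 10.8%, the E2F-type site TTCCCGC, held by 5.51%, and the E-box CACGTG, held by 6.32%. The second TET2 window, which is not shown, had 34 CG and held GGGCGG 5 times. The first TET3 window held GGGCGG 3 times, CACGTG 2 times and TTCCCGC once, and the first TET2 window held CACGTG once. The first TET1 window held none of them, and the second held CCAAT 2 times and TATAAA once. RefSeq lists 3 starts for TET1, with 4 to 11 CG before them, and 2 starts each for TET2 (10–34) and TET3 (27–37). The deposited counts are per gene symbol, so they do not tell which start was used. Of the 10 genes, 8 were in the promoter table; SMUG1 and NEIL2 are named only.

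The summed levels of the 10 genes were compared between libraries as ratios of CPM over all kept cells. A gene entered once any library had 10 CPM or more of it, which 9 of the 10 did (NEIL1 did not), and was called at a ratio of at least 2 or at most 0.5. In the library labelled day 2 over that labelled day 0, 0 of the 9 were called higher, where 10.1% of all 10574 genes were, and 1 was called lower (TET2), where 10% of all genes were. For labelled day 6 over day 2, 1 was called higher (TET2; 8.39% of all genes) and 0 lower (6.25%). For labelled day 6 over day 0, 1 was called higher (TET3; 10.8%) and 0 lower (6.06%). With 9 genes these shares are near the background, so the group as a whole did not stand apart. TET2 and NEIL3 reached 10 CPM only in the library labelled day 0, at 14.3 and 11.3 CPM. The calls of TET2 thus rest on entry through the library where it was highest. At 8.58 and 3.88 CPM, both sides of its call for labelled day 6 over day 2 were under the minimum. The median log2 ratio of the 9 was -0.19, 0.22 and -0.12 in the 3 comparisons, beside 0.01, 0.12 and 0.12 over all genes.

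**Figure D1:**
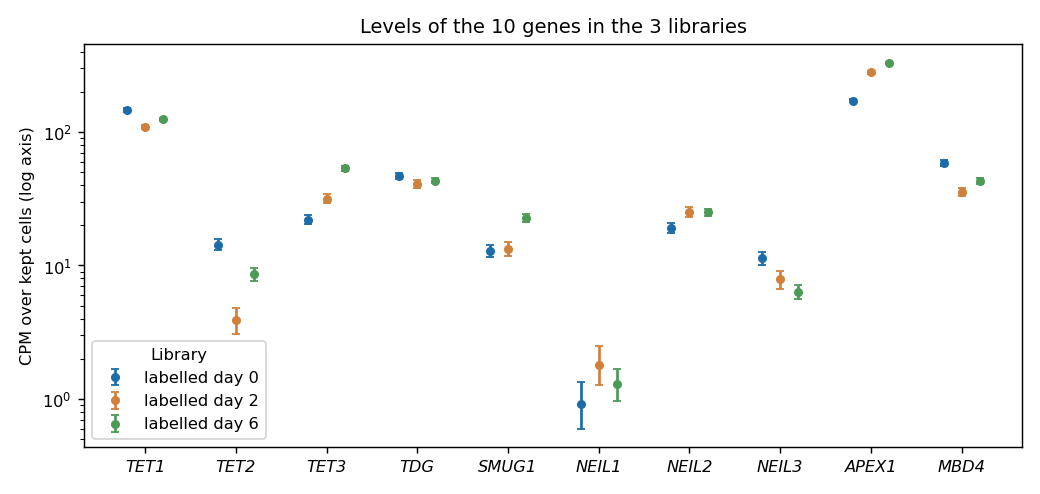
Level of each gene in CPM over kept cells (log axis) in the 3 libraries (labels day 0, day 2 and day 6), with exact Poisson 95% intervals; levels are to be read across libraries within a gene, since genes differ in length and capture. TET2 was lowest in the library labelled day 2, TET3 was highest in that labelled day 6, and APEX1 had 171, 281 and 327 CPM.

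TET1, which carries a CXXC domain that binds CG-rich DNA, was at 147 CPM (142–151) under the label day 0, 109 CPM (105–114) under the label day 2 and 124 CPM (121–128) under the label day 6. Its level thus stayed within a narrow band, while the libraries differed many-fold in POU5F1. The ratio was 0.743 (0.705–0.782) for labelled day 2 over day 0 and 0.847 (0.813–0.882) for day 6 against day 0. In cells below 5% mitochondrial UMIs the last of these was 1.04, at 105 against 102 CPM.

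TET2, which has no CXXC domain of its own, was at 14.3 CPM (13.0–15.8), 3.88 CPM (3.08–4.83) and 8.58 CPM (7.71–9.52) in the 3 libraries (labels day 0, day 2 and day 6), from 406, 80 and 354 UMIs. The 3 intervals did not overlap, and the library with the most POU5F1 had the least TET2; the part of cell content in the differences between libraries was not tested. The ratio was 0.271 (0.210–0.345) for labelled day 2 over day 0 and 2.21 (1.73–2.86) for day 6 against day 2. Across 12 other filters and scalings these ratios ranged from 0.237 to 0.312 and from 1.90 to 3.47.

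TET3, which like TET1 exists in a form with a CXXC domain, had 22.1 CPM (20.4–23.9), 31.7 CPM (29.3–34.2) and 53.5 CPM (51.3–55.8) in the 3 libraries (labels day 0, day 2 and day 6). It was highest in the library labelled day 6, at a ratio of 2.42 (2.22–2.65) over that labelled day 0 and 1.69 (1.55–1.85) over that labelled day 2. The ratio of labelled day 2 over day 0, 1.43 (1.28–1.60), depended on the cells used. It was 0.753 with a mitochondrial limit of 10%, 0.896 in cells below 5% and 0.875 when CPM was averaged over cells, so no order of TET3 between these libraries is read. The same 3 settings left TET3 higher under the label day 6 than under either other. With CPM averaged over cells, its ratio of labelled day 6 over day 0 was 1.97, just under the fold of 2.

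The make-up of the TET transcripts differed between the libraries. Of the TET UMIs, TET1 made up 80.1% (79.0–81.2), 75.4% (73.8–77.0) and 66.7% (65.6–67.7) in the 3 libraries (labels day 0, day 2 and day 6). TET3 made up 12.1% (11.2–13.0), 21.9% (20.4–23.4) and 28.7% (27.7–29.7), and TET2 7.82% (7.10–8.58), 2.68% (2.13–3.33) and 4.60% (4.14–5.09). In cells below 5% mitochondrial UMIs, with 224, 535 and 835 TET UMIs, TET3 made up 10.3% (6.62–15.01), 10.8% (8.34–13.8) and 22.2% (19.4–25.1), TET1 83.0%, 87.3% and 73.2%, and TET2 6.70%, 1.87% and 4.67%. The higher TET3 share under the label day 2 than under the label day 0 thus depended on the cells used, while the TET3 share was highest under the label day 6 in both sets of cells. TET1 had the largest share of TET UMIs in each library, which is a count of molecules captured and not corrected for length. For 1 TET2 UMI there were 1.54 (1.36–1.75), 8.16 (6.46–10.4) and 6.24 (5.57–6.998) TET3 UMIs. The TET sum was 183, 145 and 186 CPM, so the total differed less than its parts.

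**Figure D2:**
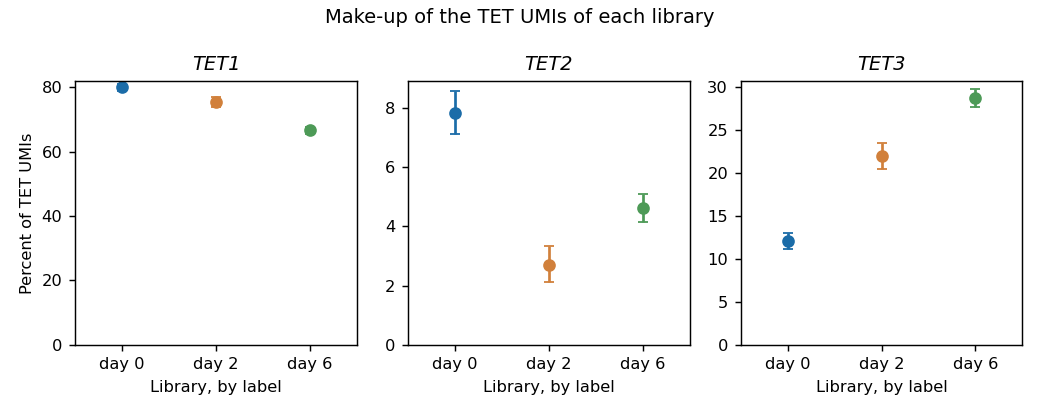
Percent of the TET UMIs of each library (labelled day 0, day 2 and day 6) that came from TET1, TET2 and TET3, with exact binomial 95% intervals; each panel starts at 0 and has its own scale. TET3 made up 12.1%, 21.9% and 28.7%, but 10.3%, 10.8% and 22.2% in cells below 5% mitochondrial UMIs, and TET2 7.82%, 2.68% and 4.60%.

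At equal depth the shares of cells with a UMI had the same order across libraries as CPM for each TET gene, with more overlap of intervals. With each cell thinned to 1000 UMIs, TET1 was seen in 13.1% (11.8–14.6), 8.56% (7.47–9.74) and 10.3% (9.36–11.2) of cells in the 3 libraries (labels day 0, day 2 and day 6). Without thinning these were 60.4%, 37.8% and 44.6%, in cells whose median UMIs differed as given above. TET2 was seen in 1.18% (0.778–1.71), 0.289% (0.116–0.595) and 0.766% (0.524–1.08), which are 27, 7 and 32 cells, and without thinning in 13.6%, 2.85% and 7.30%. TET3 was seen in 1.97% (1.44–2.62), 2.19% (1.65–2.86) and 3.95% (3.38–4.58), and without thinning in 19.1%, 14.1% and 26.9%. For TET1 the intervals of the thinned shares overlapped between labelled day 2 and day 6. For TET2 the interval of labelled day 6 overlapped both others, while those of labelled day 0 and day 2 did not overlap. For TET3 the thinned shares of the libraries labelled day 0 and day 2 overlapped in their intervals, and that labelled day 6 lay above both. As a background, 9 genes of tissues not in the culture had a median of 0%, 0.0413% and 0%, with ACTA1 highest at 1.62%, 1.07% and 1.41% and the next gene at 0.0437%, 0.0827% and 0.0718%. TET2 lay below ACTA1 and above the other 8 in each library, and the interval of TET3 under the label day 0 holds the ACTA1 share. Whether ACTA1 is expressed in the culture was not tested.

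Within a library the variance of TET1 UMIs over cells was close to that of counting alone, at a depth where this says little on how even the levels were. At 3000 UMIs per cell, 1871, 1433 and 2576 cells remained, and in them the variance of TET1 UMIs over their mean was 1.05, 1.05 and 1.09, where 1 is the value for pure counting and the median over all genes was 1.06, 1.08 and 1.05. Thinning brings this ratio nearer to 1 for any gene. At a mean of 0.407, 0.289 and 0.358 TET1 UMIs per cell it cannot tell even from moderately uneven levels. In the library labelled day 0, 1260 cells had no TET1 UMI, 483 had 1, 108 had 2 and 20 had 3 or more. The counts were 1079, 303, 43 and 8 cells for labelled day 2 and 1827, 607, 117 and 25 for labelled day 6. No separate group of cells with many TET1 UMIs was seen at this depth, at which the highest count was 5. For TET3 the variance over the mean was 1.06, 1.11 and 1.16, with 4 cells of the library labelled day 6 holding 3 or more UMIs. For TET2 it was 1.07, 1.15 and 1.05, from 57, 12 and 56 cells with a UMI.

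Co-detection of TET1 with the other 2 members was near the number that independent genes would give. Under the label day 0, TET1 and TET2 were seen together in 13 cells, where independence gives 18.6, a ratio of 0.698 (0.372–1.19). The counts were 4 against 2.96 under the label day 2 (ratio 1.35, 0.368–3.45) and 19 against 16.3 under the label day 6 (1.17, 0.703–1.82). TET1 and TET3 were together in 45, 32 and 100 cells, against 39.2, 23.0 and 97.4, with ratios of 1.15 (0.838–1.54), 1.39 (0.953–1.97) and 1.03 (0.835–1.25). Every one of these intervals holds 1, and so do those of TET2 with TET3, which met in 2, 1 and 6 cells. The intervals are wide, so joint presence or exclusion of moderate size was not detectable at this depth. The median ratio of TET1 with all genes was 1.002, 1.01 and 1.01. Cells with UMIs of 2 TET genes numbered 57, 37 and 125, which is 3.05%, 2.58% and 4.85% of cells, and 1 cell in the library labelled day 0 held all 3. Without thinning, with cells taken in 10 depth bins, TET1 and TET2 were together in 253, 50 and 254 cells. Independence gives 257, 48.1 and 245, so the ratios were 0.984, 1.04 and 1.04. TET1 and TET3 were then together in 360, 268 and 870 cells, against 352, 251 and 851, with ratios of 1.02, 1.07 and 1.02. These ratios, given without intervals, lay near 1 in each library.

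**Figure D3:**
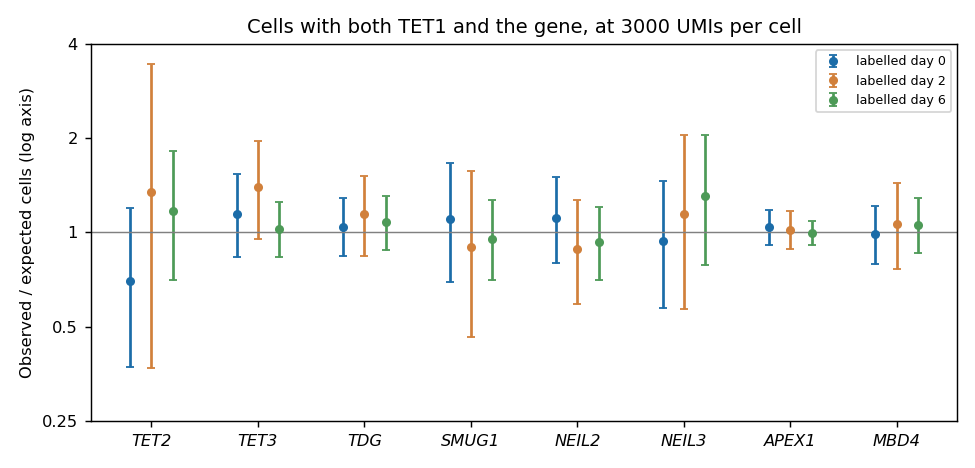
Cells with UMIs of both TET1 and the named gene over the number for independent genes (log axis), at 3000 UMIs per cell, in the 3 libraries (labels day 0, day 2 and day 6), with exact 95% intervals. All intervals hold 1; TET1 with TET2 stood at 0.698, 1.35 and 1.17 and TET1 with TET3 at 1.15, 1.39 and 1.03.

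The base excision members were not seen with TET1 beyond independence at 3000 UMIs per cell either. Over TDG, SMUG1, NEIL2, NEIL3, APEX1 and MBD4 the ratios lay between 0.883 and 1.31 in the 3 libraries, with every interval holding 1. APEX1, the most often detected of them, had the narrowest intervals, with ratios of 1.04 (0.913–1.18), 1.02 (0.886–1.17) and 0.996 (0.910–1.09).

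TDG, the glycosylase for formylated and carboxylated cytosine on chromosome 12 at 103965804 to 103988874, was at 46.7 CPM (44.2–49.3), 40.9 CPM (38.2–43.8) and 43.1 CPM (41.1–45.2) in the 3 libraries (labels day 0, day 2 and day 6). All of its ratios lay between 0.876 and 1.05, and it was seen in 4.76%, 4.01% and 4.86% of cells at 1000 UMIs. TDG was thus the member that differed least across these libraries. A pseudogene, TDGP1, is annotated, and how reads of the 2 were divided is not given; the same holds for TET1 and TET1P1.

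MBD4, which removes thymine and uracil from mismatches at CG sites and lies on chromosome 3 at 129430944 to 129440179 on the minus strand, was at 58.6 CPM (55.9–61.5), 35.6 CPM (33.1–38.3) and 42.9 CPM (40.9–44.96). It was highest in the library labelled day 0, with ratios of 0.608 (0.556–0.663) for labelled day 2 over day 0 and 0.732 (0.684–0.783) for day 6 against day 0. For 1 TDG UMI there were 1.26 (1.17–1.35), 0.871 (0.788–0.963) and 0.996 (0.932–1.06) MBD4 UMIs in the 3 libraries (labels day 0, day 2 and day 6). MBD4 shares exonic bases with IFT122 on the other strand. The strand setting of the counting is not given, so reads in that overlap cannot be told apart.

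SMUG1, which removes uracil and 5-hydroxymethyluracil and lies on chromosome 12 at 54121277 to 54189008 on the minus strand, had 12.8 CPM (11.6–14.2), 13.3 CPM (11.8–15.01) and 22.7 CPM (21.2–24.2). As for TET3, the highest level was that of the library labelled day 6, at a ratio of 1.76 (1.56–2.00) over labelled day 0 and 1.70 (1.48–1.95) over day 2. Among the cells below 5% mitochondrial UMIs its ratio of labelled day 6 over day 0 was 2.68. SMUG1 was seen in 1.22% (0.814–1.76), 1.12% (0.737–1.62) and 2.51% (2.06–3.03) of cells at 1000 UMIs. The intervals of the first 2 shares hold the share of ACTA1. SMUG1 shares exonic bases with FLJ12825, and a pseudogene SMUG1P1 is annotated, so a part of its counts is uncertain.

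The 3 NEIL glycosylases, which act on oxidised bases and cut the strand as well, did not share an order across libraries. NEIL1, on chromosome 15 at 75346955 to 75357114, had 26, 37 and 53 UMIs, which is 0.917 CPM (0.599–1.34), 1.79 CPM (1.26–2.47) and 1.28 CPM (0.962–1.68). It was seen in 3, 3 and 5 cells at 1000 UMIs, near the background genes, and shares exonic bases with MAN2C1, so no difference is read from it. NEIL2, on chromosome 8 at 11769639 to 11787346, had 19.1 CPM (17.5–20.8), 25.3 CPM (23.1–27.5) and 25.1 CPM (23.6–26.7), with a ratio of 1.32 (1.17–1.495) for labelled day 2 over day 0. It was seen in 1.83% (1.32–2.47), 2.81% (2.19–3.55) and 2.82% (2.34–3.37) of cells at 1000 UMIs, and the interval of the first share holds that of ACTA1.

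NEIL3, the member of the family known for proliferating cells, lies on chromosome 4 at 177309836 to 177362943. Its level was 11.3 CPM (10.1–12.6), 7.85 CPM (6.69–9.16) and 6.37 CPM (5.63–7.19) in the 3 libraries (labels day 0, day 2 and day 6). The ratio of labelled day 2 over day 0, 0.693 (0.571–0.840), depended on the cells used. It was 1.03 with a mitochondrial limit of 10% and 1.11 in cells below 5%, at 13.4 against 12.02 CPM, so no order of NEIL3 between these 2 libraries is read. At 1000 UMIs it was seen in 1.35% (0.922–1.92), 0.992% (0.637–1.47) and 0.813% (0.564–1.13) of cells, of which the first 2 intervals hold the ACTA1 share and the third lies below it. The ratio of labelled day 6 over day 0 was 0.563 (0.476–0.664), and it stayed between 0.544 and 0.695 under 12 other filters and scalings.

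NEIL3 was the member that went most with the G2/M genes. Cells with at least 3000 UMIs were ranked by the UMIs of 20 G2/M genes at 3000 UMIs, and the upper 25% were set against the lower 25%. These are ranges of a score and not cell types, and ties made them uneven, with 168, 148 and 356 cells at the lower limit and 59, 59 and 140 at the upper one. The upper ranges held 523, 369 and 723 cells and the lower ones 619, 452 and 992. NEIL3 stood at 18.2 against 5.87 CPM under the label day 0, 12.8 against 4.63 CPM under the label day 2 and 9.61 against 3.31 CPM under the label day 6. The ratios were 3.11 (2.24–4.38), 2.76 (1.71–4.56) and 2.90 (2.03–4.20). In the same order 5% to 95% of all genes had ratios of 0.728 to 1.44, 0.724 to 1.46 and 0.782 to 1.32, so NEIL3 lay above that range in each library. Median UMIs were 12582 against 11119, 6713 against 7288 and 8916 against 9257 in the upper and lower ranges. The part of depth in the NEIL3 ratios was not tested. The other 8 members tested lay between 0.816 and 1.87. Of these, TET2 in the library labelled day 2, from 16 and 12 UMIs, had the widest interval (0.832–4.34), and NEIL2 in the same library stood at 1.59 (1.24–2.05).

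Ranking by 16 S phase genes gave smaller ratios. MBD4 stood at 63.4 against 50.4 CPM under the label day 0, 33.0 against 33.6 CPM under the label day 2 and 49.5 against 37.5 CPM under the label day 6, with ratios of 1.26 (1.102–1.44), 0.984 (0.792–1.22) and 1.32 (1.15–1.51). For TDG the ratios were 1.17 (1.01–1.36), 1.14 (0.945–1.38) and 1.22 (1.06–1.39). In the same order 5% to 95% of all genes had ratios of 0.742 to 1.41, 0.691 to 1.33 and 0.799 to 1.37. Every MBD4 and TDG ratio lay inside this range. TET1 was slightly lower in the upper S phase range, at 0.903 (0.833–0.979), 0.868 (0.769–0.979) and 0.942 (0.872–1.02). Whether the TET1 intervals hold 1 depended on the cells and limits chosen. With wider ranges the TET1 ratios were 0.938 (0.871–1.01), 1.02 (0.926–1.12) and 0.958 (0.897–1.02), and each interval holds 1. In the library labelled day 0 only the lower range was wider, since the upper one held the same 627 cells. Ranking all kept cells instead gave 0.880 (0.802–0.967), 0.921 (0.796–1.06) and 0.947 (0.860–1.04). Of these intervals, that of labelled day 0 does not hold 1. NEIL3 stood at 1.25, 1.41 and 1.55, below its G2/M ratios, and over all kept cells at 1.48, 1.53 and 2.89.

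**Figure D4:**
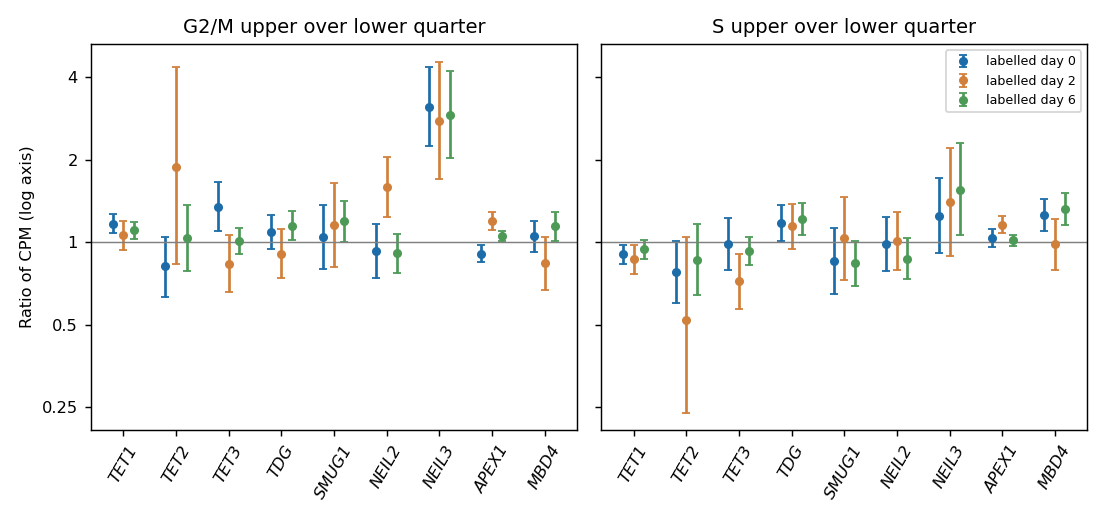
Ratio of CPM in the upper over the lower 25% of cells by G2/M genes (left) and S phase genes (right), log axis, in the 3 libraries (labels day 0, day 2 and day 6), with exact 95% intervals; NEIL1 is left out for its low count. NEIL3 stood at 3.11, 2.76 and 2.90 by G2/M genes, and the other members lay nearer 1.

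APEX1, the main endonuclease of the pathway on chromosome 14 at 20455191 to 20457772, had 171 CPM (166–176), 281 CPM (274–288) and 327 CPM (322–333) in the 3 libraries (labels day 0, day 2 and day 6). The intervals did not overlap, and the level was lowest in the library labelled day 0. Its ratio was 1.64 (1.58–1.71) for labelled day 2 over day 0 and 1.91 (1.85–1.97) for day 6 against day 0, under the fold of 2 set for a call. With CPM averaged over cells, APEX1 reached 2.05 for day 6 against day 0. It was seen in 18.1% (16.6–19.8), 27.9% (26.2–29.8) and 30.6% (29.2–32.0) of cells at 1000 UMIs. Without thinning the shares were 71.0%, 68.4% and 76.0%, in cells of unequal depth. For 1 TDG UMI there were 3.67 (3.45–3.90), 6.87 (6.39–7.39) and 7.59 (7.22–7.98) APEX1 UMIs. APEX1 shares exonic bases with PIP4P1 on the other strand.

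Cells of a library were also split by POU5F1. Most cells without a POU5F1 UMI at 1000 UMIs were cells in which thinning had missed it: without thinning it was seen in 94.3% of cells under the label day 2 and 69.4% under the label day 6, so ratios near 1 between these classes say little. In the library labelled day 6, 1076 cells with a POU5F1 UMI at 1000 UMIs were set against 3104 without. TET1 stood at 122 against 125 CPM, a ratio of 0.972 (0.909–1.04), and TET2 at 8.88 against 8.49 CPM, a ratio of 1.05 (0.810–1.34). TET3 stood at 59.4 against 51.7 CPM, a ratio of 1.15 (1.04–1.27), which was 1.01 with POU5F1 read at 3000 UMIs. In the library labelled day 2, with 1775 cells against 644, the ratios were 0.956 (0.875–1.05) for TET1, 0.964 (0.594–1.60) for TET2 and 1.06 (0.895–1.26) for TET3. Read at 3000 UMIs, where 72 cells had no POU5F1, they were 0.953, 0.388 (0.191–0.888) and 0.721 (0.535–0.992). The TET2 ratio rests on 61 UMIs against 9. For this split 5% to 95% of all genes lay at 0.644 to 1.51, so TET1 and TET3 were inside this range and TET2 below it. In the library labelled day 0, 4 cells had a POU5F1 UMI, too few to compare. Among the repair members of the library labelled day 2, NEIL2 stood at 1.34 (1.099–1.64) and APEX1 at 1.15 (1.09–1.22) at 1000 UMIs, but NEIL2 at 0.958 and APEX1 at 1.24 at 3000 UMIs.

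The mitochondrial share of a cell went with the level of several members in each library. TET3 stood at 12.6 CPM in cells below 5% mitochondrial UMIs against 22.7 CPM in cells from 5% in the library labelled day 0, a ratio of 0.553 (0.348–0.837). It stood at 11.3 against 38.4 CPM under the label day 2, a ratio of 0.293 (0.220–0.384), and at 31.9 against 57.03 CPM under the label day 6, a ratio of 0.560 (0.479–0.651). TET3 was thus lower in the cells with few mitochondrial UMIs in all 3 libraries, with the lowest ratio under the label day 2, whose interval overlapped that of labelled day 0. Over all genes the median ratio was 1.05, 1.07 and 1.07, and 5% to 95% of genes lay at 0.344 to 1.72, 0.288 to 1.69 and 0.401 to 1.61, so TET3 was inside this range.

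TET1 followed with 0.678 (0.582–0.786), 0.788 (0.710–0.872) and 0.828 (0.760–0.901), and TET2 with 0.556 (0.308–0.928), 0.429 (0.197–0.837) and 0.758 (0.529–1.06). Of the repair members, APEX1, TDG and NEIL2 lay on the other side in each library. APEX1 stood at 1.37 (1.24–1.52), 1.54 (1.45–1.62) and 1.49 (1.43–1.55), TDG at 1.30, 1.30 and 1.34 and NEIL2 at 1.64, 1.37 and 1.33. MBD4 stood at 1.18 (0.974–1.41), 1.21 (1.03–1.42) and 1.24 (1.09–1.41), SMUG1 at 0.977 (0.611–1.49), 1.66 (1.29–2.14) and 1.61 (1.37–1.89), and NEIL3 at 1.07 (0.658–1.64), 2.23 (1.61–3.08) and 1.16 (0.816–1.62), so some of their intervals hold 1. NEIL1, from few UMIs, stood at 1.21 (0.138–4.86), 0.265 (0.0521–0.843) and 0.782 (0.273–1.83). Cells below 5% were also shallower, with median UMIs of 2768 against 11763, 3170 against 5904 and 2480 against 8795. They held more of the G2/M genes, at 3515 against 2485, 2842 against 1947 and 2101 against 1525 CPM, and more of the S phase genes, at 2124 against 1506, 1871 against 1510 and 2389 against 1886 CPM. The part of depth, RNA quality and cell cycle in these ratios was not tested.

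**Figure D5:**
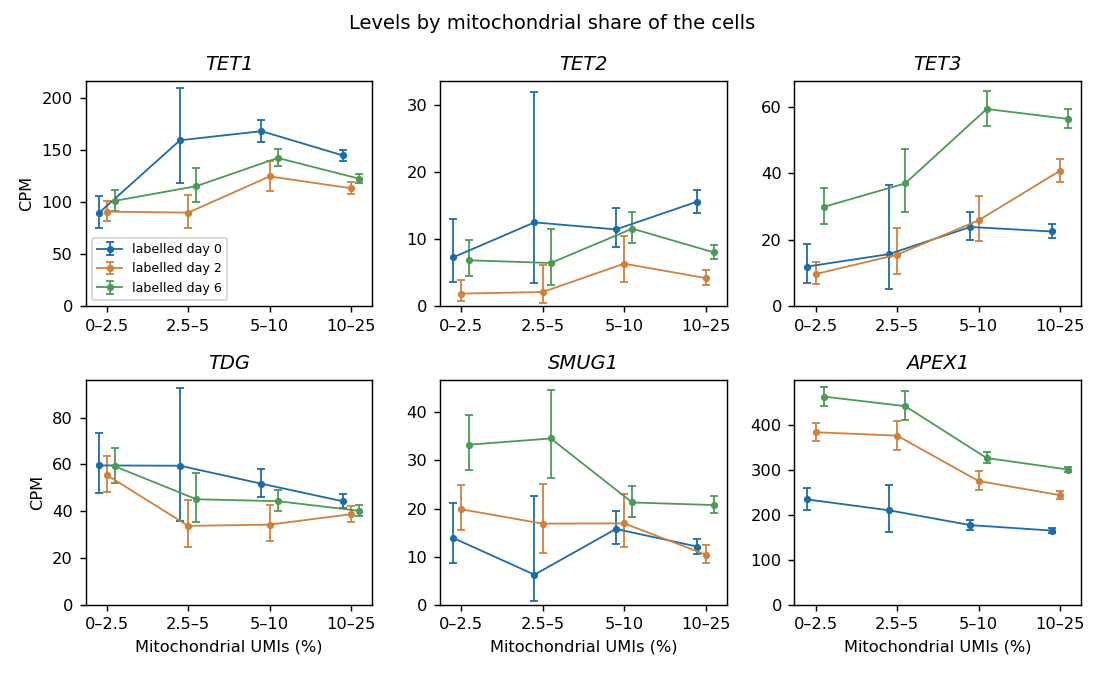
CPM of TET1, TET2, TET3, TDG, SMUG1 and APEX1 by the mitochondrial share of the cells (0–2.5%, 2.5–5%, 5–10% and 10–25%) in the 3 libraries (labels day 0, day 2 and day 6), with exact Poisson 95% intervals. TET3 in the library labelled day 2 stood at 9.66, 15.5, 25.8 and 40.7 CPM, while APEX1 there stood at 383, 375, 275 and 243 CPM.

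The pathway around the 10 genes was described with 4 further lists. Of 16 genes of later base excision repair and other glycosylases, 15 were tested. Called higher were 0, 0 and 1 and lower 1, 0 and 0, with the comparisons in the order used for the 10 genes. The shares over all genes were 10.1%, 8.39% and 10.8% higher and 10%, 6.25% and 6.06% lower, so most genes of any kind lay between 0.5 and 2 times. The gene called for labelled day 2 over day 0 was APTX, which clears abortive ligation ends, at 36.6 against 89.5 CPM, a ratio of 0.409 (0.377–0.444). Between labelled day 6 and day 0 it was UNG, the uracil glycosylase, at 108 against 50.8 CPM, a ratio of 2.13 (2.00–2.26). UNG stood at 101 CPM under the label day 2, close to that labelled day 6. The scaffold protein XRCC1 stood at 33.3, 34.1 and 59.1 CPM, POLB, the gap-filling polymerase, at 48.2, 38.6 and 43.5 CPM, and LIG3 at 27.3, 27.1 and 34.4 CPM. The medians of the log2 ratios of the list were 0.25, 0.25 and 0.31 in the 3 comparisons, beside the 0.01, 0.12 and 0.12 over all genes given above.

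Among 11 genes of TET partners and of the metabolism of the TET cofactor, 10 were tested. Called higher were 1 (CXXC5) for labelled day 2 over day 0, 1 (CXXC4) for day 6 over day 2 and 2 (CXXC5 with IDH1) in the last comparison, day 6 over day 0. Called lower were 2 (CXXC4 and IDH2), 0 and 0 in the same order. With 10 genes these counts are near the shares over all genes. CXXC4, also named IDAX, encodes a CXXC protein known to bind TET2 and to lower its protein level. It stood at 49.2, 7.95 and 29.2 CPM in the 3 libraries (labels day 0, day 2 and day 6), the same order as TET2. TET1, TDG, MBD4 and IDH2 had this order too, and a link between CXXC4 and TET2 levels was not tested. The CXXC4 gene lies on chromosome 4 at 104468312 to 104494901 on the minus strand, before TET2, which begins at 105145875. CXXC5, a related protein, stood at 58.1, 127 and 127 CPM. IDH1, which makes 2-oxoglutarate in the cytosol, stood at 221, 323 and 460 CPM, and IDH2, its mitochondrial counterpart, at 106, 50.3 and 70.9 CPM. OGT, the sugar transferase that binds TET proteins, stood at 39.5, 45.3 and 73.4 CPM. The median log2 ratio of the list was 0.25, 0.23 and 0.39.

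The GADD45 proteins and cytidine deaminases, which have been proposed as other routes of demethylation, were mostly low. Of 12 genes, 5 were tested, and for labelled day 2 over day 0, 4 were called higher and 1 lower. For labelled day 6 over day 2, 0 were called higher and 4 lower, whereas labelled day 6 over day 0 gave 2 higher and 2 lower. The median log2 ratio of the 5 was 2.14, -1.30 and 0.84. The shares over all genes were 10.1%, 8.39% and 10.8% higher and 10%, 6.25% and 6.06% lower. GADD45B, GADD45G and APOBEC3D reached 10 CPM only in the library labelled day 2, so the minimum level itself favoured calls of higher there. Neither counts nor medians are therefore read against the background, and 7 of the 12 genes did not reach the minimum level. GADD45A, a stress-induced gene, stood at 91.8, 28.0 and 23.9 CPM, GADD45B at 2.61, 11.5 and 1.07 CPM and GADD45G at 1.76, 15.6 and 7.25 CPM. GADD45A was thus highest in the library labelled day 0 and the other 2 under the label day 2. APOBEC3C, a cytidine deaminase known for restricting retroelements, stood at 6.67, 29.5 and 11.97 CPM, and APOBEC3D at 0.423, 12.9 and 2.30 CPM. These genes are near-identical neighbours in part of their sequence, so the division of their reads is uncertain.

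Of 7 readers of modified cytosine, all were tested, and 1 was called, near the share over all genes. It was ZBTB38, which binds methylated CG sites, lower for labelled day 2 over day 0, at 5.14 against 12.9 CPM, a ratio of 0.399 (0.318–0.497). It stood at 7.92 CPM under the label day 6. ZBTB38 thus reached 10 CPM only in the library labelled day 0, so its call of lower rests on entry through the library where it was highest. UHRF2, a reader of hydroxymethylated cytosine, stood at 43.9, 49.9 and 50.2 CPM. HMCES, which shields abasic sites in single-stranded DNA, stood at 36.1, 52.3 and 51.8 CPM. The median log2 ratio of these 7 genes was 0.21, 0.065 and 0.28.

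Leaving out the 3, 39 and 148 cells of the 3 libraries (labels day 0, day 2 and day 6) that clustered mostly with another library moved the called members little. TET2 then stood at 0.263 for labelled day 2 over day 0 and 2.23 for day 6 against day 2, and TET3 at 2.46 for day 6 against day 0. Likeness to other genes over single cells was weak for each TET gene. Ranked by the lowest of the 3 within-library correlations at 3000 UMIs among 2426 genes, MALAT1 was nearest to TET1 (r of 0.099, 0.053 and 0.086), DHRSX to TET2 (0.034, 0.057 and 0.037) and IGF2BP3 to TET3 (0.053, 0.101 and 0.100). In counts this sparse, correlations so low are no finding.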

How the data were processed

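The authors deposited, per library, a matrix of whole counts, genes by barcodes, read here as UMIs; whether duplicates were collapsed was not given in the sources used here. STAR and hg38 are named in the submitters' processing notes, without a version; the annotation and the strand setting were likewise not given. Every deposited barcode had at least 100 genes.

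The gene lists were joined by symbol. UMIs were summed over kept cells and scaled to 1000000 (CPM). Intervals are exact Poisson for levels, conditional binomial for ratios and Clopper-Pearson for shares, and the lowest level resolved, 3 UMIs, was 0.106, 0.145 and 0.0727 CPM in the 3 libraries (labels day 0, day 2 and day 6). Cells were thinned to 1000 UMIs (seed 11) for shares, which left out no kept cell, and to 3000 for spread, co-detection and cell cycle classes, which left out 18.3%, 40.8% and 38.4% of kept cells. All 10 members are named, with other pathway genes from 4 lists. Members and lists were chosen with earlier results of these data known. Some genes of the lists are not reported here and are left out of the counts. No doublet caller was run. Python 3.11.15, scipy 1.17.1 and scanpy 1.11.5 were used, and the ratio and co-detection calculations were tested on simulated data. Alternatives covered filters, scaling (TMM with edgeR and median of ratios), fold, minimum level and depth. Gene locations are from GENCODE and starts from RefSeq.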

Additional observations from a re-analysis of the deposited data

How the results depend on the processing

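With 1 library per day and counting intervals only, differences between cultures are not measured. Pairs of TET1 and TET2 rest on 4 to 19 cells at 3000 UMIs per cell, and on 50 to 254 without thinning. No paired analysis was possible because each labelled day has 1 library. The number of members called at most 0.5 times for labelled day 2 over day 0 (1, TET2) was 0 in cells below 5% mitochondrial UMIs, where TET2, at 1.94 against 8.20 CPM, fell under the minimum level, 2 at a fold of 1.5 (TET2 and MBD4) and 0 at a minimum of 50 CPM; at least 2-fold higher were 0, and 1 at a fold of 1.5 (APEX1). For labelled day 6 over day 2, the 1 called higher became 2 with a mitochondrial limit of 10% (TET2 and TET3), 0 in cells from 5% mitochondrial UMIs (TET2 at 8.88 against 4.52 CPM, a ratio of 1.963), 3 at a fold of 1.5 (with TET3 and SMUG1), 0 at a fold of 3 and 0 at a minimum of 50 CPM. Averaging CPM over cells, with TET2 at 1.90 and TET3 at 2.26, gave 1 (TET3 in place of TET2). Cells below 5% mitochondrial UMIs also gave 1, TET3 at 31.9 against 11.3 CPM, with TET2 under the minimum level. For labelled day 6 over day 0, the 1 called higher became 2 in cells below 5% (TET3 and SMUG1), 3 at a fold of 1.5 (with SMUG1 and APEX1) and 0 at a fold of 3, and 2 were called lower at a fold of 1.5 (TET2 and NEIL3). There, averaging CPM over cells gave 1 higher, APEX1 at 2.05 in place of TET3 at 1.97. The shares over all genes given above hold only for a fold of 2 and a minimum of 10 CPM over all kept cells. Counts of members under other settings have no such share beside them and are not read against a background. TET2 and NEIL3, called lower at a fold of 1.5, reached 10 CPM only in the library labelled day 0. The cause of the changes with mitochondrial share was not tested. Counts of members stayed within 1.5 times in 83 of 96 cases. Values stayed inside the counting interval of the reported one in 299 of 360 ratios between libraries, 30 of 30 co-detection ratios, 32 of 90 shares of cells, mostly read at other depths, 56 of 60 ratios by G2/M genes, 56 of 60 by S phase genes and 12 of 20 by POU5F1, and the variance over the mean stayed within its sampling error in 21 of 30. Without a mitochondrial limit the median log2 ratio of all genes was -0.11 for labelled day 2 over day 0, beside 0.01. NEIL3 in the upper over the lower G2/M range, over all kept cells, was 5.44, 2.41 and 3.59, and by S phase genes 1.48, 1.53 and 2.89. Restrictions to cells below and from 5%, to cells of a library's own clusters and to cells outside the 5% with the most UMIs, and the cell cycle classes over all kept cells, were chosen after seeing the data.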

Other observations

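Barcodes with under 500 UMIs, which were left out, carried the same transcripts at levels not far from those of the kept cells of their library. In 7670, 7325 and 8995 such barcodes of the 3 libraries (labels day 0, day 2 and day 6), TET1 stood at 108 CPM (92.3–125), 82.9 CPM (70.2–97.3) and 90.6 CPM (78.0–105), which is 73.4%, 76.1% and 72.9% of its level in kept cells. TET2 was farther off under the label day 0, at 39.4% from 9 UMIs, and stood at 85.0% and 98.1% under the labels day 2 and day 6. TET3 stood at 19.4 CPM (13.2–27.6), 28.0 CPM (20.9–36.8) and 45.6 CPM (36.7–55.9). NEIL3 was the member highest relative to kept cells, at 111%, 147% and 140%, from 20, 21 and 18 UMIs. APEX1 stood at 72.1%, 66.0% and 70.5%.

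Cells with at least 1000 UMIs and over 25% mitochondrial UMIs, 607, 1278 and 1148 in the same order, held less of most members in CPM. This CPM is over all UMIs, mitochondrial ones included. Picking cells by a high mitochondrial share therefore lowers the CPM of the other genes as a whole. No value over all genes is set beside it, so the lower levels are not read as a trait of the members. TET3 in them was at 62.5%, 97.1% and 65.7% of its level in kept cells, TET1 at 53.0%, 87.2% and 54.2%, and APEX1 at 75.9%, 45.9% and 68.9%. In the library labelled day 2, TET1 and TET3 thus lay nearer to the kept cells than TDG, at 51.4%, and NEIL2, at 50.8%.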
